A study of Mus musculus with 12 samples.

Results

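The 5′ fragments of glycine tRNA with anticodon GCC (tRNA-Gly-GCC) that were 30, 31, 32 or 33 nt long comprised 501 of the 2971 small RNA sequences counted in mouse sperm. Their levels are given in RPM, the reads of a sequence scaled by the authors to the same nominal library size. The parent sequence, called R here, was the most abundant sequence of at least 34 nt that began with the 28 nt sequence ranked 2nd by mean RPM over the 12 libraries. The Gly-GCC family was every sequence that lay within R with at most 2 edits, which gave 1083 sequences. Members of the set described here started at base 1 of R and were 30 to 33 nt long. The members were thus chosen by the mean RPM over all libraries, through R, and by sequence and length. No difference between groups entered this rule, but it was chosen with earlier results of these data known. The other family sequences were 440 of 29 nt or less from base 1, 16 of 34 nt or more from base 1, and 126 that started after base 1.

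The 12 libraries came from histone replacement-completed sperm (HRCS), mature sperm in which the exchange of histones for other packaging proteins is complete. Male mice ate control diet or low protein diet from 3 to 12 weeks of age, and were wild-type or ATF7+/-, that is, heterozygous for a transcription factor gene of the ATF2 family. Sperm from the caudal epididymis and vas deferens were mildly sonicated to part heads from tails, and HRCS was collected by 82% Percoll precipitation. Each of the 4 groups (wild type on control diet, wild type on low protein diet, ATF7+/- on control diet, ATF7+/- on low protein diet) had 3 numbered replicates. The labels do not say whether replicates were separate animals, or give a strain, so p-values measure only the spread between these samples. All 4 groups share the purification and carry no other stated allele or agent. The table holds small RNA sequences only, so the labelled cell type could not be checked against markers, and in such bulk RNA fewer cells and less RNA per cell cannot be told apart.

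Transfer RNAs carry amino acids to the ribosome, and cleavage in or near the anticodon loop leaves a 5′ fragment known as a 5′ tRNA fragment. Mature mouse sperm are rich in such fragments, the 5′ fragments of tRNA-Gly-GCC among the most abundant, and many are thought to be acquired during passage through the epididymis. Paternal low protein diet has been reported to alter their levels in mouse sperm.

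R and the 4 fragments identical to it show what separates the members by length. Capitals mark the bases that follow the 28 nt sequence used to find R.
R, 35 nt: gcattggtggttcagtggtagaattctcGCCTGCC
identical 30 nt: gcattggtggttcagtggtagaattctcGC
identical 31 nt: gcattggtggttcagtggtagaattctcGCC
identical 32 nt: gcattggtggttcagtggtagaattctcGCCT
identical 33 nt: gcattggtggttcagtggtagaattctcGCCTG
The anticodon GCC occupied bases 33 to 35 of R. The 30 and 31 nt fragments thus stopped short of the anticodon, the 32 nt fragment stopped directly before it, and the 33 nt fragment ended on its first base. RefSeq annotation of GRCm38.p6 lists 14 nuclear tRNA-Gly genes with anticodon GCC, each 71 bp, on 7 chromosomes, for example n-TGgcc3 at chr1:74816747-74816817. Which of these copies gave R was not determined here. The same annotation lists 6 genes with anticodon CCC, each 71 bp. Members that stop before the anticodon take the name Gly-GCC from R. Whether another glycine tRNA gave some of them was not determined.

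The variants that carried most of the remaining reads changed base 5, base 6 or the last base. The sequences below are examples of such changes and not a ranking by level. C30G averaged only 101 RPM and is shown because of a result given below, and G33A averaged 222 RPM. Capitals mark each base that differs from R, and each change is written as R's base, its position counted from 1 at the 5′ end of R, and the fragment's base.
30 nt G6T: gcattTgtggttcagtggtagaattctcgc
30 nt T5G: gcatGggtggttcagtggtagaattctcgc
30 nt C30T: gcattggtggttcagtggtagaattctcgT
30 nt C30G: gcattggtggttcagtggtagaattctcgG
31 nt C31T: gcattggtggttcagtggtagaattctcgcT
31 nt C31A: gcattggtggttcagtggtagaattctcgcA
32 nt G6T: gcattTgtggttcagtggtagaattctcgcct
33 nt G33A: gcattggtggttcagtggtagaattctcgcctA
Members share a parent sequence and libraries, and sequencing or copying errors of an abundant fragment are listed as sequences of their own. Counts over members are therefore not counts of independent molecules, and no test was made on sums over them.

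Read totals behind the authors' RPM values ran from 2198744 to 6870039 per library, and of these 97.5% to 98.2% of reads were in the table. The wild-type libraries on low protein diet were shallow, at 2278880 to 2874170 reads, and the ATF7+/- libraries on that diet deep, at 4828916 to 6870039. A level of 3 counts corresponded to 0.437 to 1.36 RPM, and no fold is given where a group mean fell below 1.36 RPM. Reads had no molecular identifiers, so such floors cover counting error only. All 2971 sequences were tested, the lowest at a mean of 2.04 RPM. No sequence was filtered out, and members ran from a mean of 2.28 RPM upwards, with a median of 12.0 RPM. Counts above 0 in every library were found for 500 of the 501 members.

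The members together held 16.1% of the reads in the table and 38.9% of the family's reads as means over the 12 libraries. The family fragments of 29 nt or less held 56.9% of the family. The summed level of the members was 165002 ± 41956 RPM (SD, n = 3) in wild type on control diet, and 136257 ± 11626 RPM with low protein. In ATF7+/- the sum was 144387 ± 11341 RPM with the control diet, and 184411 ± 26383 RPM with low protein. The 12 libraries spanned 127274 to 212158 RPM, and the highest was replicate 2 of wild type on control diet. On low protein diet all 3 ATF7+/- libraries lay above all 3 wild-type libraries, whereas the other 3 pairs of groups overlapped.

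Most member reads were 30 or 31 nt long. The 214 members of 30 nt carried 48.9% of the members' summed mean level, the 193 of 31 nt 42.4%, the 74 of 32 nt 6.46% and the 20 of 33 nt 2.23%. At the lower length limit, the fragment identical to R averaged 39942 RPM at 30 nt, inside, and 20694 RPM at 29 nt, outside. At the upper limit the identical fragment averaged 2244 RPM at 33 nt, inside, and 200 RPM at 34 nt, outside, while R itself, at 35 nt, averaged 1938 RPM.

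The identical 30 nt fragment, the most abundant member, stood at 35743, 47581 and 35456 RPM in replicates 1 to 3 of wild type on control diet, and the low protein diet libraries of that genotype had 32732, 31407 and 32421 RPM. In ATF7+/- the control-diet libraries had 43042, 36182 and 38701 RPM, and those on low protein diet had 40351, 56864 and 48820 RPM. The 3 wild-type libraries on low protein diet were the lowest of all 12 and were separate from both groups they can be compared with. The identical 31 nt fragment was at 30284, 44130 and 25613 RPM in wild type on control diet, and at 36354, 27520 and 28586 RPM with the low protein diet. Its levels in ATF7+/- were 33126, 29633 and 22642 RPM with the control diet, and 29585, 34427 and 32176 RPM with the low protein diet. All 4 groups overlapped for this length.

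The identical 32 nt fragment measured 3046, 3750 and 5862 RPM in wild type on control diet, against 6856, 4853 and 5231 RPM for the low protein diet. In ATF7+/- it measured 3158, 3321 and 5714 RPM for the control diet, against 6147, 10636 and 8565 RPM for the low protein diet. Replicates 1 and 2 of the control diet were the 4 lowest libraries in both genotypes, and replicate 3 of the control diet was above 2 of the wild-type libraries on low protein diet. The ATF7+/- groups did not overlap. The identical 33 nt fragment, which ends inside the anticodon, ranged only from 1733 RPM in a wild-type library on low protein diet to 3316 RPM in an ATF7+/- library on the same diet, and all groups overlapped.

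Exact copies of R made up 50.1% of the members' summed level in 4 sequences. Another 213 members with 1 edit held 40.8% and 284 with 2 edits held 9.07%. All but 3 edited members differed by substitutions alone, and those 3, with an insertion or deletion, held 0.0109%. The 5 most abundant members carried 65.9% of the level and the 20 most abundant 92.0%.

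A T in place of G at base 6 (G6T) was the most abundant internal change, found in 118 members that carried 22.2% of the member level. Its share was steady, at 22.2 ± 1.19% (SD over the 12 libraries), and lowest at 18.8% in replicate 1 of wild type on control diet. The share of reads with T at base 6 averaged 12.7% at 27 nt, 17.8% at 28 nt, 22.1% at 30 nt, 22.2% at 31 nt, 22.5% at 32 nt and 27.7% at 35 nt. Longer fragments of the family thus held more of this form. Because at most 2 edits were allowed against R, fragments with T at base 6 and more than 1 further edit were not counted.

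The form with G at base 5 (T5G) followed the opposite order along length. Its share averaged 23.7% at 27 nt, 6.0% at 28 nt, 4.47% at 31 nt, 1.77% at 33 nt and 0.681% at 35 nt. Over the 37 members that carried it, its share of member reads was 6.21%, 8.02% and 3.29% in wild type on control diet and 3.03%, 3.71% and 3.00% on low protein diet. In ATF7+/- the share was 5.03%, 4.78% and 5.75% on control diet and 4.37%, 4.83% and 4.64% on low protein diet. The wild-type libraries on low protein diet all lay below the ATF7+/- libraries on the same diet, and within wild type the diets overlapped because replicate 3 of the control diet was low.

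The last base differed from R in 173 members, which held 25.9 ± 2.75% of member reads over the 12 libraries. At 30 nt, where R has C, 18.2% of reads ended in T, 4.60% in A and 0.175% in G. At 31 nt, again C in R, 22.8% ended in T, 7.84% in A and 0.364% in G. At 32 nt, where R has T, 9.51% ended in C and 8.05% in A, and at 33 nt, where R has G, 8.54% ended in A. A non-matching last base was much rarer in the 28 nt fragments, at 6.94%. At 31 nt the share was nearly the same on each backbone, with 31.3% for fragments that matched R at bases 5 and 6, 30.1% for those with T at base 6 and 30.9% for those with G at base 5.

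Across groups, the share of member reads with a non-matching last base was highest in wild type on control diet, at 32.4%, 28.9% and 23.8% in replicates 1 to 3, with replicate 3 far below the other replicates. It was 25.1%, 24.2% and 23.9% in wild type on low protein diet, 23.1%, 23.1% and 25.2% in ATF7+/- on control diet, and 26.3%, 26.8% and 27.5% in ATF7+/- on low protein diet. The ATF7+/- libraries on low protein diet lay above every ATF7+/- library on control diet and above every wild-type library on low protein diet.

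Base 6, base 5 and the last base together accounted for 304 members and 46.3% of the level. The remaining 193 edited members held 3.62%. Every position from 1 to 33 was edited in at least 1 member, and positions 7 to 27 each held between 0.0460% and 0.380% of the level. The most abundant substitution elsewhere was A22G, at 0.342%. Of 69 kinds of substitution in bases 1 to 27 other than G6T and T5G, 27 were transitions (exchanges of A with G or of C with T), and these held 78.0% of that class.

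The low protein diet was compared with the control diet over both genotypes to ask how paternal protein restriction altered these fragments. The 32 nt fragments were higher on low protein diet, whereas the 30 and 31 nt fragments moved little in this average over genotypes. Their median log2 fold changes had opposite signs within the genotypes. They were -0.40 at 30 nt and -0.25 at 31 nt in wild type, and 0.40 and 0.29 in ATF7+/-. Of the 74 members of 32 nt, 14 rose and none fell at an adjusted p below 0.05, and 71 had a positive log2 fold change, as did 48.9% of the table. Of the whole table, 11.9% was called in this comparison, 10.3% lower and 1.55% higher, against 18.9% of the 32 nt members. Over all 501 members, 16 or 3.19% were called, the 14 of 32 nt and 2 lower at 30 nt. The median log2 fold change was 0.78 at 32 nt, 0.01 at 30 nt, 0.03 at 31 nt and 0.13 at 33 nt, beside -0.01 over all sequences. With 1 library left out it ranged from 0.66 to 0.94 at 32 nt, from -0.065 to 0.094 at 30 nt, from -0.068 to 0.16 at 31 nt and from 0.055 to 0.21 at 33 nt. The 9 family sequences of 35 nt had a median of 0.31 and the 226 of 28 nt from base 1 a median of 0.28. The 125 of 29 nt from base 1 had a median of 0.41. Mostly positive values were thus not particular to 32 nt, with 121 positive at 29 nt and 218 at 28 nt. Of these, 0 were called at 29 nt and 1 at 28 nt. Fragments of the family that started after base 1 had a median of -1.23.

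The identical 32 nt fragment rose by a log2 fold change of 0.74 ± 0.22 (SE, adjusted p = 0.0483, edgeR quasi-likelihood, Benjamini-Hochberg adjusted across the table). Its form with T at base 6 averaged 1277 ± 498 RPM in wild type on control diet, 1814 ± 242 RPM in wild type on low protein diet, 1290 ± 430 RPM in ATF7+/- on control diet and 2718 ± 776 RPM in ATF7+/- on low protein diet (SD, n = 3), and it rose by 0.79 ± 0.23 (SE, adjusted p = 0.0428, edgeR quasi-likelihood test). The largest called rise was 1.25 ± 0.30 (SE, adjusted p = 0.0243, edgeR) for the 32 nt fragment with G6T and A14G, a scarce sequence with a mean of 5.57 RPM. Single internal changes at 32 nt that rose were C28T, by 1.06, C2T, by 0.97, T12C, by 0.91, G1A and G1C, each by 0.89, C30A, by 0.86, T27C, by 0.82, C26A, by 0.81, and A23G, by 0.80. Those sequences averaged 4.64 to 15.4 RPM, far below the 5595 RPM of the identical fragment. The 2 that fell both had G at base 5 at 30 nt, T5G with A14G by -1.20 and T5G with A3G by -0.99 on the log2 scale.

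The rise at 32 nt depended on which control-diet libraries were used. The 32 nt members made up 3.37% to 4.35% of member reads in replicates 1 and 2 of the control diet, 7.82% and 7.43% in replicate 3 of wild type and ATF7+/-, and 6.82% to 9.41% on low protein diet. Without replicates 1 and 2 of both control-diet groups, which leaves 1 library in each and assumes that it varies like the others, no member was called, the median at 32 nt was 0.30 and the identical fragment stood at 0.26 (adjusted p = 0.543, edgeR). In turn, leaving out replicate 3 of wild type on control diet raised the calls from 16 to 56, and leaving out replicate 3 of ATF7+/- on control diet raised them to 44. They rose to 25 without replicate 1 of ATF7+/- on low protein diet and were between 0 and 3 without any other single library. With limma-voom no member was called, and with TMM scaling the identical 32 nt fragment was at 0.73 (adjusted p = 0.0613, edgeR). The share of family reads that started after base 1 also differed between these libraries. It was 9.58%, 3.14% and 2.96% in wild type on control diet, 6.54%, 4.85% and 2.59% in ATF7+/- on control diet and 1.07% to 2.63% on low protein diet, and its part in the result was not tested.

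Within wild type, the 30 nt fragments tended to lower levels on low protein diet, and few single sequences passed the test. The summed 30 nt members amounted to 73024, 99904 and 65609 RPM with the control diet, against 60352, 57980 and 60634 RPM with low protein, with no overlap. Of the 501 members, 6 fell and none rose, which is 1.20% against 2.52% of all sequences called in this comparison (2.36% lower). All 6 were of 30 nt. The median log2 fold change was -0.40 at 30 nt, -0.25 at 31 nt, 0.35 at 32 nt and -0.30 at 33 nt, beside -0.10 over all sequences. Family fragments from base 1 had positive medians at the next shorter lengths, 0.33 at 28 nt and 0.25 at 29 nt. Groups did not overlap, with the low protein diet lower, for 60 of the 214 members of 30 nt and 5 of the 193 of 31 nt. The same held for 1 of the 74 of 32 nt and 5 of the 20 of 33 nt. Over all 501 members the number was 71, or 14.2%, against 11% of the table.

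The 6 that fell were scarce forms at or below a mean of 31.2 RPM, shown because each was called. Capitals mark differences from R.
30 nt T5G and C30G: gcatGggtggttcagtggtagaattctcgG
30 nt T5G and A14G: gcatGggtggttcGgtggtagaattctcgc
30 nt G15A and C30T: gcattggtggttcaAtggtagaattctcgT
30 nt G9A and G15A: gcattggtAgttcaAtggtagaattctcgc
30 nt T24C and C30T: gcattggtggttcagtggtagaaCtctcgT
30 nt T5C and C30T: gcatCggtggttcagtggtagaattctcgT
Of the 6, 4 combined an internal change with a last base that did not match R. Such a last base, with or without an internal change, was found in 173 of all 501 members. The form with T5G and C30G had 8.40, 22.8 and 3.31 RPM with the control diet, against 0.878, 2.09 and 0.434 RPM with low protein, a group mean under the level of 3 counts, so no fold is given. The form with T5G and A14G fell by 2.35 ± 0.49 on the log2 scale, from 16.0 ± 9.75 RPM (SD, n = 3) to 3.05 ± 0.764 RPM. The falls of G15A with C30T, G9A with G15A, T24C with C30T and T5C with C30T were 1.60, 1.48, 1.32 and 1.08 on the log2 scale. The adjusted p was 0.0486 for each of the 6 by edgeR's quasi-likelihood test.

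The abundant 30 nt fragments did not pass in wild type. The identical fragment had a log2 fold change of -0.30 ± 0.19 (SE, adjusted p = 0.403, edgeR). The fragment ending in T (C30T) averaged 10825 ± 2732 RPM with the control diet, against 6976 ± 258 RPM with low protein (SD, n = 3), a value of -0.63 ± 0.23 (SE, adjusted p = 0.125, edgeR) with no overlap between the groups. The fragment with G at base 5 had -1.43 ± 0.40 (SE, adjusted p = 0.0653, edgeR), from 4294 ± 2984 to 1597 ± 102 RPM, and replicate 2 of the control diet carried most of the spread. The 6 calls became 66 without replicate 3 of wild type on control diet, 9 without replicate 3 of ATF7+/- on control diet and none without any other single library. None remained when only the wild-type libraries were fitted, and none with replicates 1 and 2 of both control-diet groups left out, where the medians were -0.13 at 30 nt, 0.26 at 31 nt and -0.06 at 32 nt. Without replicate 2 of wild type on control diet alone, the median was -0.21 at 30 nt and 0.03 at 31 nt. The 32 nt median was 0.14 without replicate 1 of that group, 0.63 without its replicate 3 and 0.18 without replicate 1 of wild type on low protein diet, and with 1 library left out the 33 nt median ranged from -0.35 to -0.13.

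In ATF7+/- the members lay mostly higher on low protein diet, but none passed the test. With edgeR's quasi-likelihood test 0 of 501 members had an adjusted p below 0.05, as against 0.101% of all sequences. At an unadjusted p below 0.05 there were 106 members, all higher, or 21.2%, against 16.9% of all sequences and 7.61% in the higher direction. DESeq2 called 4 and limma-voom none. Positive log2 fold changes were found for 473 members and 52.6% of the table, with medians of 0.40 at 30 nt, 0.29 at 31 nt, 1.14 at 32 nt and 0.47 at 33 nt, beside 0.03 over all sequences and 0.60 at 29 nt. All 3 libraries on low protein diet lay above all 3 on control diet for 35.9% of members, compared with 13.0% of the table.

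The 32 nt fragments had the widest gap between diets in ATF7+/-. Their sum was 5814, 5934 and 10370 RPM with the control diet, against 11143, 19741 and 15885 RPM with low protein, with replicate 3 of the control diet just below the lowest library on low protein diet. The identical fragment had 1.06 ± 0.32 (SE, adjusted p = 0.214, edgeR). The smallest adjusted p values among members, 0.179 to 0.192 by edgeR, belonged to the 32 nt fragments with T25C (1.56), G1C (1.53), C30A (1.42), T12C (1.42) and G6T with C31A (1.73, log2 fold changes). T25C averaged 9.25 ± 0.345 RPM with the control diet, against 27.3 ± 8.20 RPM with low protein (SD, n = 3). Without replicate 3 of ATF7+/- on control diet, 13 members were called in this comparison, 1 without replicate 3 of wild type on control diet, and none without any other single library. The medians also moved with single libraries, to 0.25 at 30 nt without replicate 2 of ATF7+/- on low protein diet, 0.18 at 31 nt without replicate 3 of ATF7+/- on control diet and 0.29 at 33 nt without replicate 1 of ATF7+/- on low protein diet. Without replicates 1 and 2 of both control-diet groups they were 0.44 at 30 nt, 0.56 at 31 nt, 0.61 at 32 nt and 0.21 at 33 nt.

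Differences by genotype on control diet were not called, and their size moved with single libraries. No member was called by edgeR's quasi-likelihood test, DESeq2 or limma-voom, and no sequence of the table was called by edgeR (0%). At an unadjusted p below 0.05 there were 28 members, 27 lower and 1 higher in ATF7+/-, or 5.59% against 4.21% of all sequences (3.13% lower and 1.08% higher). The median log2 fold change of the members was -0.20, beside -0.05 over all sequences. This median was 0.0031 without replicate 2 of wild type on control diet and 0.042 without replicates 1 and 2 of both control-diet groups. Without replicate 3 of wild type on control diet it was -0.31, with 95 members at an unadjusted p below 0.05 by edgeR. The identical fragments had values between -0.23 at 31 nt and -0.01 at 30 nt. Shorter family fragments from base 1 had positive medians, 0.28 at 27 nt, 0.26 at 28 nt and 0.33 at 29 nt.

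The 5 members of smallest p on control diet all had an adjusted p of 0.965 (edgeR). The single higher one was a 32 nt fragment with 1 inserted base, with 2.27 ± 0.335 RPM for wild type and 7.17 ± 3.66 RPM for ATF7+/- (SD, n = 3), with a log2 fold change of 1.70. The others were G15A with C30T at 30 nt (-1.19) and A23G with C31A, C13T (-0.84) and G1C with C31A (-1.09) at 31 nt.

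On low protein diet nearly all members were higher in ATF7+/- than in wild type, and 1 was called. The medians were 0.70 at 30 nt, 0.21 at 31 nt, 0.73 at 32 nt and 0.55 at 33 nt, beside 0.11 over all sequences. Each of the 214 members of 30 nt, the 74 of 32 nt and the 20 of 33 nt had a positive value, and 159 of the 193 of 31 nt did, against 58.1% of the table. The same held for all 125 fragments of 29 nt from base 1, with a median of 0.67, whereas the 35 nt sequences had a median of -0.49 and none was positive. Groups did not overlap, with ATF7+/- higher, for 71.0% of the 30 nt members and 72.8% of the 29 nt fragments, compared with 21.3% of the table.

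The called member was the 30 nt fragment ending in G (C30G). With low protein, the wild-type libraries had 46.1, 50.1 and 58.2 RPM and the ATF7+/- libraries 120, 180 and 166 RPM. With the control diet wild type had 108, 144 and 71.9 RPM, all above the wild-type libraries on low protein diet. ATF7+/- had 107, 81.4 and 75.0 RPM with the control diet, all below the ATF7+/- libraries on low protein diet. The ATF7+/- libraries on low protein diet all lay far above the wild-type libraries on that diet, with a log2 fold change of 1.59 ± 0.29 (SE, adjusted p = 0.0463, edgeR quasi-likelihood test). A single call among 501 is 0.200%, near the 0.202% of all sequences called in this comparison. At an unadjusted p below 0.05, however, 167 members were higher and 0 lower, or 33.3% against 17.0% of all sequences and 11.2% in the higher direction.

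The next members by p were also of 30 nt. They were T24C with C30T (1.53, adjusted p = 0.0541), T5C with C30T (1.32, adjusted p = 0.0584), G9A with G15A (1.63, adjusted p = 0.0883) and G1C (1.01, adjusted p = 0.0923), all by edgeR. The abundant 30 nt fragments had values of 0.60 ± 0.19 for the identical sequence (SE, adjusted p = 0.154, edgeR), 0.56 ± 0.22 with T at base 6 and 0.85 ± 0.23 ending in T. The groups did not overlap for the identical sequence. With 1 library left out the median ranged from 0.57 to 0.84 at 30 nt and from 0.14 to 0.37 at 31 nt. It ranged from 0.49 to 0.92 at 32 nt and from 0.40 to 0.72 at 33 nt. The 0.37 at 31 nt was found without replicate 1 of wild type on low protein diet. The number of calls was 108 when only the libraries on low protein diet were fitted and 0 with replicate as a block in a fit of all libraries. It was 4, 2 and 10 without replicate 1, 2 or 3 of wild type on control diet, 3 without replicate 3 of ATF7+/- on control diet, 2 without replicate 1 of ATF7+/- on low protein diet and 0 without any other single library. In this comparison all wild-type libraries were shallower than all ATF7+/- libraries, so depth and genotype cannot be told apart.

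The diet by genotype interaction asks whether the diet difference itself differed between ATF7+/- and wild type. No member passed by edgeR's quasi-likelihood test, and no sequence of the table did (0%). At an unadjusted p below 0.05 there were 140 members, all with a larger value in ATF7+/-, or 27.9% against 9.83% of all sequences and 8.08% in that direction. DESeq2 called 3 members and limma-voom none. The median interaction was 0.83 at 30 nt, 0.56 at 31 nt, 0.82 at 32 nt and 0.75 at 33 nt on the log2 scale, beside 0.16 over all sequences, and 485 of 501 members had a positive value against 58.4% of the table. The 28 nt fragments from base 1 had a median of -0.18 and the 29 nt fragments 0.39. Without replicate 3 of wild type on control diet 20 members were called and the 32 nt median was 0.52. Without replicate 2 of that group the 31 nt median was 0.28, with 139 of 193 positive. Without replicates 1 and 2 of both control-diet groups the medians were 0.52 at 30 nt, 0.31 at 31 nt and 0.36 at 33 nt.

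The 30 nt fragment ending in T (C30T) was the most abundant member that moved in opposite directions in the genotypes with no overlap in either. Wild type had 11642, 13055 and 7778 RPM with the control diet, against 7179, 6685 and 7064 RPM with low protein. ATF7+/- had 8797, 7411 and 9262 RPM with the control diet, against 10027, 14705 and 12891 RPM with low protein. Its interaction was 1.20 ± 0.32 (SE, adjusted p = 0.305, edgeR). The smallest adjusted p values, 0.249 by edgeR, belonged to the 30 nt forms with G15A and C30T, at 2.58 ± 0.49 (SE), and with T5C and C30T, at 1.86 ± 0.36 (SE). Next were the 30 nt forms C30G (1.89), T24C with C30T (1.85) and C28A with C30T (1.48), each with an adjusted p of 0.305 by edgeR. Lower levels in wild type and higher levels in ATF7+/- on low protein diet, without overlap in either genotype, were found for 27 of 501 members (5.39%) and 35 of 2971 sequences (1.18%), while the reverse arrangement was found for no member and 4 sequences.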

How the data were processed

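Small RNA of 12 mouse sperm libraries was made with the NEBNext small RNA kit and read as 36-bp paired ends, per the labels' protocols. The authors deposited 1 table with, for each sequence and library, a whole-number read count and a normalised RPM value, per the file headers. The submitters' processing notes name mm10, and what aligned and counted the reads is not given in the sources used here. Library totals were recovered from the deposited counts and RPM values. The members and lists described here were chosen with earlier results of these data known.

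Members were found with edlib 1.3.9.post1 (at most 2 edits). Counts of all 2971 sequences were fitted with edgeR 4.0.16 (quasi-likelihood, R 4.3.3) using 4 group means and the recovered totals as library size, 2-sided, p-values adjusted across the whole table (Benjamini-Hochberg) and called below 0.05. The procedure was tested on simulated data for diet in wild type only. The simulated sequences varied independently and their changes were larger than the member medians given here. The simulation therefore does not cover smaller changes or members that vary together. A log2 fold change is given with its standard error, and sums and shares were described without a test. Individually named members were drawn from 3 sources. These were the fragment identical to R at each length and the 3 most abundant edited members of each length, not all of which are shown. The last source was, for each comparison, the called members up to 10 in each direction, or the 5 of smallest p where fewer than 5 were called. C30T is described in the interaction because it is among the most abundant.

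Alternatives were TMM scaling, the table sum as library size, DESeq2 1.42.0, limma-voom 3.58.1, a minimum mean of 10 RPM, fits of only the groups compared, a replicate block, each library left out in turn and, chosen after seeing the data, control-diet replicates 1, or 1 and 2, left out in both genotypes. Same-numbered libraries of the 2 control-diet groups deviated together (correlation 0.143 to 0.547 over sequences). Differently numbered libraries of these groups ranged from -0.582 to 0.227, with replicates 1 and 2 at 0.227 and 0.195. The labels state no pairing, and the main fit had no replicate block. In other pairs of groups, same-numbered libraries did not all deviate together. No 2 libraries held identical values. Genome sequence was not used here.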

Additional observations from a re-analysis of the deposited data

Results flagged for a closer look

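In 7 of the individually named members, all 3 wild-type libraries on low protein diet lay below all 3 on control diet while all 3 ATF7+/- libraries on low protein diet lay above all 3 on control diet, and they are listed for that reason. The value given for each is the diet difference in ATF7+/- minus that in wild type, in RPM. The 30 nt fragment ending in T (C30T) had 7900 RPM, C30G 124 RPM and G1C 49.99 RPM. Among the scarcer 30 nt fragments, T5C with C30T had 31.4 RPM, G15A with C30T 12.9 RPM and C28A with C30T 8.90 RPM. The 31 nt fragment with C13T had 17.4 RPM. The difference between the genotypes was tested as an interaction by edgeR's quasi-likelihood test, and none of the 7 passed, with adjusted p between 0.249 and 0.309. In 5 of the 7 the last base did not match R, a trait of 173 of all 501 members. The named members were picked partly by small p, so this count does not describe members at large.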

How the results depend on the processing

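Counts of called members varied with the test and with single libraries, and beyond the libraries named the cause was not tested. In wild type the diet gave 6 calls, against 17 by DESeq2 and 0 by limma-voom, at a mean of at least 10 RPM, with only the groups compared, or with control-diet replicates 1, or 1 and 2, left out in both genotypes, and 0 to 66 with 1 library left out. In ATF7+/- the diet gave 0, against 4 by DESeq2, and 0 to 13 with 1 library left out. Genotype on control diet gave 0 calls under every setting run, with 0 to 0 when 1 library was left out. Genotype on low protein diet gave 1, against 10 by DESeq2, 3 at a mean of at least 10 RPM, 108 with only the groups compared, 108 with control-diet replicates 1 and 2 left out, 3 with replicates 1 left out, and 0 to 10 with 1 library left out. The interaction gave 0, against 3 by DESeq2 and 0 to 20 with 1 library left out. Diet over both genotypes gave 16, against 10 with TMM scaling, 28 by DESeq2, 0 by limma-voom, 4 at a mean of at least 10 RPM, 0 with control-diet replicates 1, or 1 and 2, left out, and 0 to 56 with 1 library left out.

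With replicate as a block in a fit of all libraries the calls were 4 for diet in wild type, 0 for genotype on low protein diet and 19 for diet over both genotypes. With the block in a fit of only the groups compared they were 0 for diet in wild type, 28 for diet in ATF7+/- and 17 for genotype on low protein diet. For genotype on control diet, 0 members were called with and without the block. There the same-numbered libraries correlated positively, but so did replicate 1 of each genotype with replicate 2 of the other.

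Counting only sequences identical to R, the members summed to 79330 RPM in wild type on control diet, 70716 RPM in wild type on low protein diet, 73963 RPM in ATF7+/- on control diet and 91803 RPM in ATF7+/- on low protein diet. With at most 1 edit ATF7+/- on control diet summed to 132008 RPM. With 1 library left out the sums ranged over 141424 to 181602, 129691 to 140748, 137903 to 148419 and 171692 to 198029 RPM in the same order of groups.

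Among the individually named sequences, changes of sign occurred in uncalled values of the 4 identical fragments. Medians over members that changed sign are given with the comparisons and, for genotype on control diet by length, ranged with 1 library left out from -0.22 to 0.075 at 30 nt, -0.50 to -0.044 at 31 nt, -0.37 to 0.20 at 32 nt and -0.23 to -0.010 at 33 nt. For genotype on control diet, the 30 nt fragment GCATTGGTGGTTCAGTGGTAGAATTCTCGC turned from -0.01 to 0.0021 with TMM scaling, 0.013 by DESeq2, 0.0016 by limma-voom, 0.0031 with the replicate block, 0.00031 with the block in only the groups compared and 0.13 with control-diet replicates 1 and 2 left out. For genotype on low protein diet, the 31 nt fragment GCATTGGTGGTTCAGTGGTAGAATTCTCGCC turned to -0.022 with TMM scaling and -0.045 by DESeq2. With control-diet replicates 1 and 2 left out, diet in wild type turned to 0.27 at 31 nt and -0.054 for the 32 nt fragment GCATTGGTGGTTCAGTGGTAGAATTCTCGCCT, and for the 33 nt fragment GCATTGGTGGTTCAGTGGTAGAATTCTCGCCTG genotype on control diet turned to 0.018 and diet over both genotypes to -0.049. With 1 library left out, the identical fragments' values for genotype on control diet ranged from -0.084 to 0.14 at 30 nt, -0.39 to 0.027 at 31 nt, -0.38 to 0.26 at 32 nt and -0.14 to 0.038 at 33 nt. Diet in wild type ranged from -0.27 to 0.14 at 31 nt and -0.19 to 0.034 at 33 nt, diet over both genotypes from -0.059 to 0.082 at 30 nt and -0.050 to 0.16 at 31 nt, and genotype on low protein diet from -0.018 to 0.19 at 31 nt.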
